A study of Mus musculus with 12 samples.

Results

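The transcripts described here encode adipocyte hormones and proteins of fatty acid uptake and fat storage: Adipoq, Retn, Cfd and Lep for the secreted proteins, and Cd36, Lpl, Fabp4, Cidec, Lipe and Pck1 for the handling of lipid. Their probes were taken by the gene name in the array files, and every probe is shown on its own. A probe filed under a synonym of Lipe is given apart from them. Of the 10 genes, 9 had a probe, which gave 15 of the 41174 probes on the arrays, and 14 of these 15 were among the 30189 probes that entered the test. Pck1, the enzyme that makes the glycerol backbone of stored fat from small precursors, was not analysed here. Where a gene has several probes they are numbered by brightness, and probe 1 is the brightest.

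The study hybridised total RNA of whole lungs to 12 Agilent arrays with 1 dye, each from 1 mouse, in 3 groups of 4. The first group were Rora mutants in cigarette smoke, the second wild type (WT) mice in cigarette smoke, and the third WT mice in room air. The labels give C57Bl/6 background, male sex and an age of 12 weeks for all 3 groups, name no Rora allele, and describe smoke exposure on 5 days a week for 4 months, a span longer than that age. Mutants breathing room air were not analysed here, so an effect of genotype and a response to smoke that depends on genotype cannot be told apart.

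Adipocytes store fatty acids as triglyceride in a droplet and release them when the body needs fuel. Lipoprotein lipase frees fatty acids from circulating lipoproteins, Cd36 takes them up, Fabp4 binds them in the cell, Cidec enlarges the droplet and hormone-sensitive lipase breaks its fat down again. In lung, Cd36, Lpl and Fabp4 are also known from alveolar macrophages or capillary endothelium, while Adipoq, Retn and Lep are known mainly as products of adipocytes.

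Levels are log2 intensity relative to the 75th percentile of the same array, so a level of 0 stands at that percentile and 1 unit is a doubling. The share of spots well above background was 70.1% to 74.8% over the arrays. The Rora probe averaged -1.01 ± 0.10 in the mutants, 1.18 ± 0.04 in WT smoke and 1.10 ± 0.04 in WT room air (SD, n = 4 each), in the order of the labels. The X-inactivation transcript Xist averaged -4.61 ± 1.26 in the mutants, -5.39 ± 2.08 in WT smoke and 4.04 ± 0.07 in WT room air, although all mice are labelled male. The Y-linked Ddx3y averaged 0.51 ± 0.16 in the mutants and 0.46 ± 0.19 in WT smoke, and was above background on 0 of 4 room air arrays, with a mean of -7.67 ± 1.10. Room air therefore differs from both smoke groups in sex-linked transcripts, and in any comparison with room air smoke and this difference cannot be told apart. WT smoke replicate 2 also stood apart: of 12 arrays it was the lowest for 8 of the 14 tested probes described here, against 8.25% of all tested probes. Mutant replicate 4 was the highest for 9 of the 14, and the share of all tested probes highest there was not counted. Over all tested probes it was the lowest array for 16.4%, the largest such share of the 12 arrays. Results that rest on WT smoke replicate 2 are given with and without it.

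In the comparison of Rora mutant smoke with WT smoke lungs, which asks what the Rora mutation changes under smoke, 9 of the 14 probes passed and all 9 were higher in the mutants (limma, Benjamini-Hochberg adjusted p under 0.05). Over all tested probes 5.83% passed in that comparison, 2.07% higher and 3.75% lower in the mutants. The 9 were 1 of 2 probes of Retn, both of Lipe, all 3 of Fabp4, the probe of Cidec, 1 of 2 of Cd36 and 1 of 2 of Lpl. Probes of Adipoq and Cfd did not pass. The median log2 change of the 14 was 0.54, against -0.00 over all tested probes, and the changes ran from 0.22 to 1.49. In whole lung, more cells of a type and more RNA per cell cannot be told apart. The mutant and WT smoke arrays did not overlap at 10 of the 14 probes, where 13.2% of all tested probes had groups without overlap and 5.96% had them with the mutants higher. Each of these 10 had an exact two-sided permutation p of 0.0286, the smallest that 4 arrays against 4 allow. Groups without overlap always give this p, so it adds nothing to the lack of overlap. The number that passed changed with single arrays left out: it was 5 without WT smoke replicate 2, and 5 without WT smoke replicate 1. It was 4 without WT smoke replicate 4, 3 without mutant replicate 1 and 3 without mutant replicate 4. The shares over all tested probes were lower too, at 3.78%, 2.52%, 4.47%, 3.54% and 2.49% in the same order. With slide as a block 4 of the 14 passed, against 4% of all tested probes. They were both probes of Lipe and probes 2 and 3 of Fabp4. With normexp background correction 0 passed, against 0.0861% of all tested probes.

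**Figure D1:**
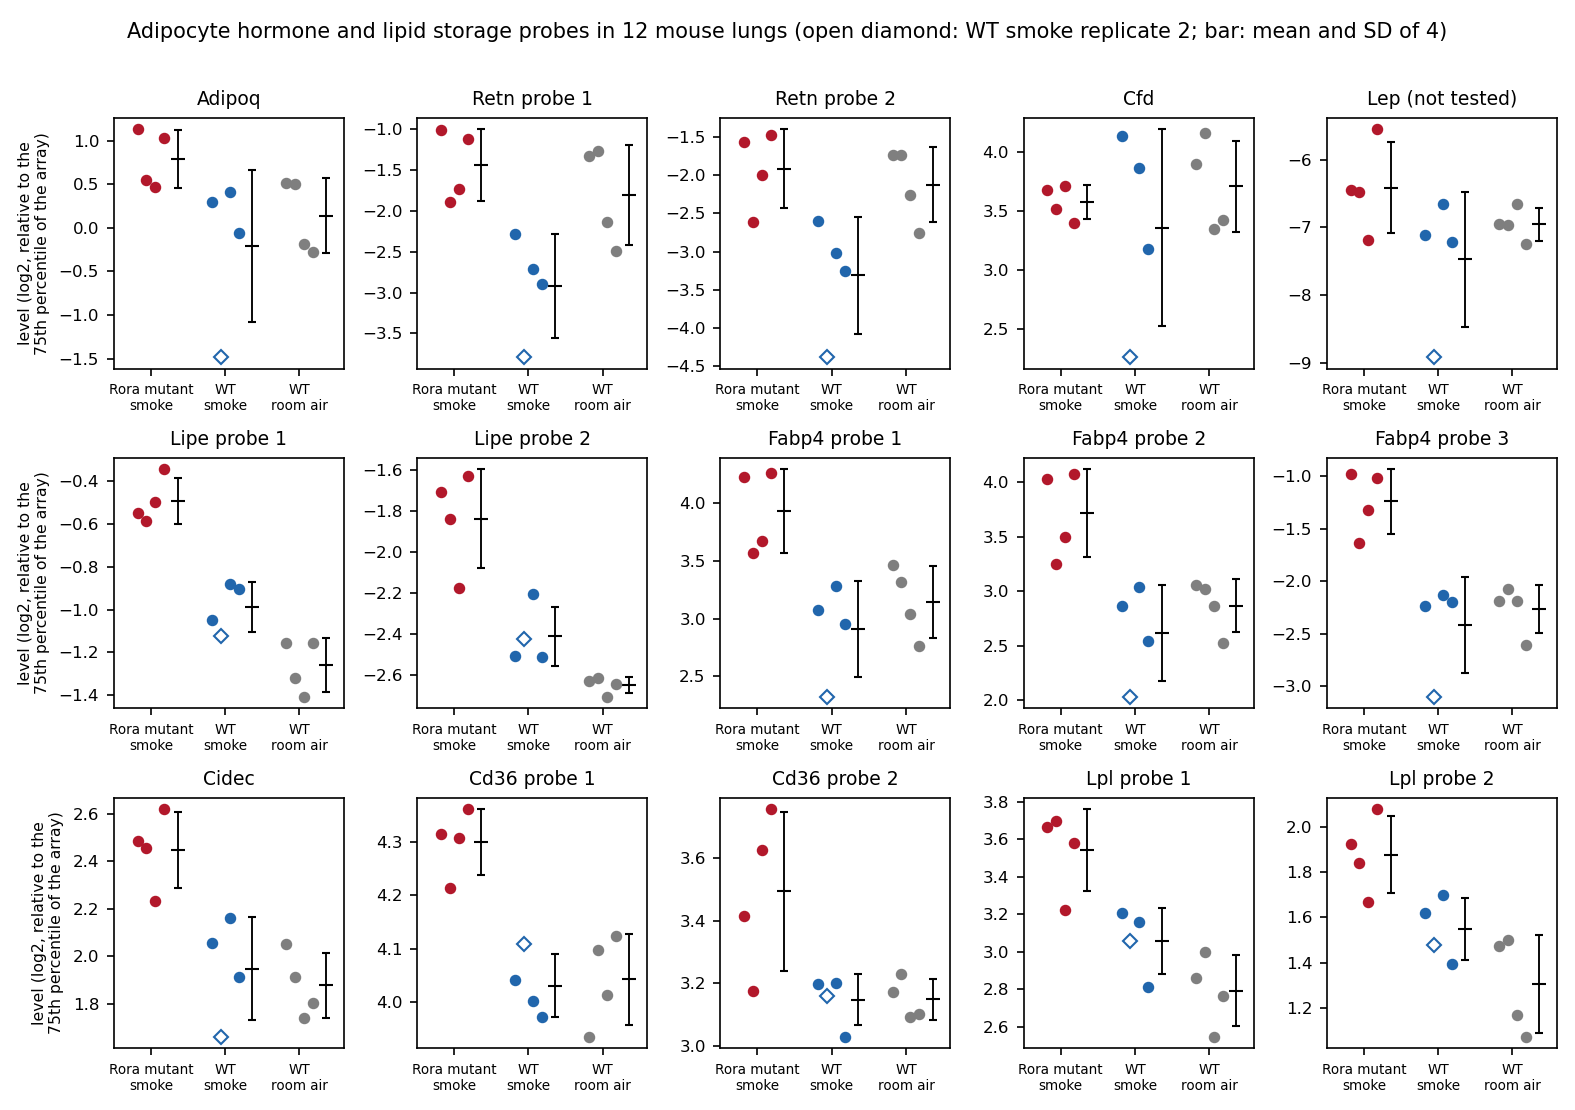
Levels of the 15 probes on each array, as log2 intensity relative to the 75th percentile of the array, in Rora mutant smoke, WT smoke and WT room air lungs (points: arrays; open diamond: WT smoke replicate 2; bars: mean and SD of 4). All 4 mutant arrays lie above all 4 WT smoke arrays at 10 of the 14 tested probes, and the open diamond is the lowest of the 12 points at 8 of the 14.

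Among the hormones, adiponectin (Adipoq), an insulin-sensitising protein made almost only by adipocytes, had 1 probe (mm8 chr16:23072837-23072896). Its levels were 1.13, 0.55, 0.47 and 1.03 in mutant smoke lungs, 0.30, -1.48, 0.41 and -0.05 in WT smoke lungs, and 0.52, 0.50, -0.19 and -0.28 in WT room air lungs. The mutant arrays were all above the WT smoke arrays, by little except for WT smoke replicate 2, and they overlapped with room air. The change against WT smoke was 1.00 ± 0.37 (SE), a 2.00-fold difference that did not pass (adjusted p = 0.142). It was 0.57, or 1.49-fold, without WT smoke replicate 2 (adjusted p = 0.215), and it passed in 0 of 24 alternative settings.

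Resistin (Retn), which in mice is secreted by adipocytes, had 2 probes with overlapping target intervals (mm8 chr8:3656107-3656928 and chr8:3656145-3656966). Probe 1 stood at -1.01, -1.89, -1.73 and -1.12 in mutant smoke lungs, -2.28, -3.79, -2.72 and -2.90 in WT smoke lungs, and -1.33, -1.26, -2.14 and -2.49 in WT room air lungs. WT smoke was lowest here, with no overlap with the mutants but with overlap with room air. Probe 1 rose by 1.49 ± 0.35 in the mutants against WT smoke, or 2.80-fold (adjusted p = 0.0337), and by 1.20 without WT smoke replicate 2, where it no longer passed (adjusted p = 0.0693). Probe 2 stood at -1.57, -2.61, -2.00 and -1.48 in mutant smoke lungs, -2.60, -4.38, -3.02 and -3.25 in WT smoke lungs, and -1.73, -1.74, -2.26 and -2.76 in WT room air lungs. Its change of 1.40 ± 0.38 missed the threshold (adjusted p = 0.0524), and mutant replicate 2 lay just below WT smoke replicate 1.

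Adipsin (Cfd), the complement factor D protease that fat secretes, had the smallest change of the hormones tested in mutant smoke against WT smoke (mm8 chr10:79295686-79295745). Its levels were 3.67, 3.52, 3.71 and 3.40 in mutant smoke lungs, 4.13, 2.26, 3.86 and 3.18 in WT smoke lungs, and 3.90, 4.16, 3.35 and 3.42 in WT room air lungs. The 3 groups overlapped, and WT smoke replicate 2 was the lowest of all arrays. The change in the mutants against WT smoke was 0.22 ± 0.34 (adjusted p = 0.777), and it turned to -0.15 without WT smoke replicate 2. Leptin (Lep), the satiety hormone of fat, had 1 probe printed in 10 spots (mm8 chr6:29023244-29023303), which was too dim to be tested. Lep was well above background on 2 of 4 mutant arrays and on 0 of 4 arrays of each WT group. Its levels were -6.45, -6.48, -7.19 and -5.55 in mutant smoke lungs, -7.11, -8.91, -6.65 and -7.21 in WT smoke lungs, and -6.95, -6.96, -6.65 and -7.25 in WT room air lungs. Mutant replicate 4 was the highest and WT smoke replicate 2 the lowest, the 3 groups overlapped, and no fold is given.

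The start-site windows of Adipoq and Retn are printed because these are the hormones with the largest changes against WT smoke. They run from 250 bases before to 50 after the RefSeq start on GRCm38.p6, Adipoq at chr16:23146286-23146585 and Retn at chr8:3655520-3655819, both on the plus strand. Both strands were searched for the C/EBP motif TTNCNNAA, the TATA box TATAAA, the nuclear receptor half-site AGGTCA, a direct repeat of that half-site with 1 base N between, and a ROR element. The ROR element was spelled as AANT or TANT followed by AGGTCA or GGGTCA, and other spellings of it were not searched. The direct repeat always overlaps the half-site, and the ROR element does so in its AGGTCA form. Capitals mark the C/EBP motif, which is in the Adipoq window, while the Retn window holds none of the 5 motifs as spelled here.
Adipoq: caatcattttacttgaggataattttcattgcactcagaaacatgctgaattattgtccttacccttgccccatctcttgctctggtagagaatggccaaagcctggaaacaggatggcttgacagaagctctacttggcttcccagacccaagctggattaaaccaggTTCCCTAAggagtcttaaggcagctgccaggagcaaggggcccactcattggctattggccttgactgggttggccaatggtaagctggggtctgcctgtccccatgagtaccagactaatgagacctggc
Retn: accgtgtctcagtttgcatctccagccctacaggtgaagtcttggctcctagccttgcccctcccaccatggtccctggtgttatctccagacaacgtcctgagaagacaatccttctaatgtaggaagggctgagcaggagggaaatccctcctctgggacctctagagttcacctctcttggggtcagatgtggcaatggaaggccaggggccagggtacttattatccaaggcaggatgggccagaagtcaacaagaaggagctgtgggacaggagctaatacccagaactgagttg
Of 32851 mouse promoters of the same length, 40.7% hold the C/EBP motif, 16.3% the half-site, 13.6% the TATA box, 0.688% the ROR element and 0.0396% the direct repeat. A match is a run of letters and not a bound site.

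Fabp4, the fatty acid binding protein of adipocytes and macrophages, had 3 probes, and all 3 passed. Probe 1 (mm8 chr3:10186983-10187043) stood at 4.23, 3.57, 3.67 and 4.26 in mutant smoke lungs, 3.07, 2.32, 3.29 and 2.96 in WT smoke lungs, and 3.47, 3.31, 3.04 and 2.76 in WT room air lungs. All mutant arrays were above all arrays of both WT groups, and the WT groups overlapped. Probe 1 rose by 1.02 ± 0.23, or 2.03-fold (adjusted p = 0.0274), and probe 2 (mm8 chr3:10187065-10187794) by 1.10 ± 0.24, or 2.14-fold (adjusted p = 0.0226). Probe 3, which lies nearer the 5′ end of the gene on the minus strand (mm8 chr3:10190974-10191033), stood at -0.98, -1.64, -1.33 and -1.02 in mutant smoke lungs, -2.23, -3.10, -2.13 and -2.20 in WT smoke lungs, and -2.19, -2.08, -2.19 and -2.60 in WT room air lungs. Here too the mutants were apart from both WT groups, which lay together. Probe 3 rose by 1.17 ± 0.22, or 2.26-fold (adjusted p = 0.0124). The changes of probes 1, 2 and 3 were 0.83, 0.90 and 0.95 without WT smoke replicate 2, and probe 1 no longer passed (adjusted p = 0.054). Probe 3 passed in 22 of 23 alternative settings, all but the normexp background correction.

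Cd36, the fatty acid transporter and scavenger receptor, changed least among the genes that passed. Probe 1 (mm8 chr5:17295116-17297548) stood at 4.32, 4.21, 4.31 and 4.36 in mutant smoke lungs, 4.04, 4.11, 4.00 and 3.97 in WT smoke lungs, and 3.93, 4.10, 4.01 and 4.12 in WT room air lungs. The mutants were above every WT array in a narrow band. Probe 1 rose by 0.27 ± 0.06, or 1.20-fold (adjusted p = 0.0247), and by 0.29 without WT smoke replicate 2 (adjusted p = 0.0341). Probe 2 (mm8 chr5:17294606-17294665) stood at 3.42, 3.18, 3.63 and 3.76 in mutant smoke lungs, 3.20, 3.16, 3.20 and 3.03 in WT smoke lungs, and 3.17, 3.23, 3.09 and 3.10 in WT room air lungs. Mutant replicate 2 lay within both WT groups, and the change of 0.35 ± 0.11 did not pass (adjusted p = 0.0816).

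Lpl, which splits triglyceride in lipoproteins at the capillary wall, had 2 probes of which 1 passed. Probe 1 (mm8 chr8:71835357-71835416) stood at 3.67, 3.70, 3.23 and 3.58 in mutant smoke lungs, 3.21, 3.06, 3.16 and 2.81 in WT smoke lungs, and 2.86, 3.00, 2.55 and 2.77 in WT room air lungs. The mutants were highest, with mutant replicate 3 only just above WT smoke replicate 1, and the WT groups overlapped. Probe 1 rose by 0.49 ± 0.13, or 1.40-fold (adjusted p = 0.0484). It did not pass without WT smoke replicate 2, where the change was 0.48 (adjusted p = 0.0924), and it passed in 8 of 24 alternative settings. Probe 2 (mm8 chr8:71830140-71830199) stood at 1.92, 1.84, 1.67 and 2.08 in mutant smoke lungs, 1.62, 1.48, 1.70 and 1.40 in WT smoke lungs, and 1.47, 1.50, 1.17 and 1.07 in WT room air lungs. Its groups overlapped through mutant replicate 3 and WT smoke replicate 3, and its change of 0.33 ± 0.12 did not pass (adjusted p = 0.129).

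Cidec, a droplet protein that fuses small lipid droplets into larger ones, had 1 probe (mm8 chr6:113390476-113390535). Its levels were 2.48, 2.45, 2.23 and 2.62 in mutant smoke lungs, 2.06, 1.66, 2.16 and 1.91 in WT smoke lungs, and 2.05, 1.91, 1.74 and 1.80 in WT room air lungs. The mutants were above all WT arrays, and the WT groups overlapped. Cidec rose by 0.50 ± 0.12, or 1.42-fold (adjusted p = 0.0294), and by 0.41 without WT smoke replicate 2, where it did not pass (adjusted p = 0.0605).

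Hormone-sensitive lipase (Lipe), which releases fatty acids from the droplet, had the lowest adjusted p of the 8 genes tested in Rora mutant smoke against WT smoke. Probe 1 (mm8 chr7:25089715-25091968) stood at -0.55, -0.59, -0.50 and -0.34 in mutant smoke lungs, -1.05, -1.12, -0.88 and -0.91 in WT smoke lungs, and -1.16, -1.32, -1.41 and -1.16 in WT room air lungs. The 3 groups did not overlap: the mutants were highest and room air lowest. Probe 1 rose by 0.50 ± 0.08 in the mutants against WT smoke, or 1.41-fold (adjusted p = 0.00749). Probe 2 (mm8 chr7:25089569-25089628) stood at -1.71, -1.84, -2.17 and -1.63 in mutant smoke lungs, -2.50, -2.42, -2.20 and -2.51 in WT smoke lungs, and -2.63, -2.61, -2.71 and -2.64 in WT room air lungs. Its groups kept the same order without overlap, although mutant replicate 3 lay next to WT smoke replicate 3. Probe 2 rose by 0.57 ± 0.11, or 1.49-fold (adjusted p = 0.0137). The changes without WT smoke replicate 2 were 0.45 (adjusted p = 0.0229) and 0.57 (adjusted p = 0.0346), and Lipe passed in every alternative setting but normexp, 23 of 24 for probe 1 and 22 of 23 for probe 2. One more probe carries the name 4933403G17Rik, listed as a synonym of Lipe, and was not counted among the 15. This 4933403G17Rik probe averaged -3.00 ± 0.21 in mutant smoke lungs, -2.98 ± 0.23 in WT smoke lungs and -3.10 ± 0.16 in WT room air lungs, and its change of -0.02 did not pass (adjusted p = 0.95).

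The windows of Cidec and Cd36 are printed because these 2 lipid genes rose and their windows hold the matches found among the genes that rose. Cidec has 2 RefSeq starts on the minus strand of GRCm38.p6, at chr6:113434715-113435014 (start 1) and chr6:113435711-113436010 (start 2), and Cd36 has 1 at chr5:17835847-17836146 on the minus strand. Capitals mark the C/EBP motif, and in Cd36 also the half-site, which reads TGACCT on the printed strand.
Cidec start 1: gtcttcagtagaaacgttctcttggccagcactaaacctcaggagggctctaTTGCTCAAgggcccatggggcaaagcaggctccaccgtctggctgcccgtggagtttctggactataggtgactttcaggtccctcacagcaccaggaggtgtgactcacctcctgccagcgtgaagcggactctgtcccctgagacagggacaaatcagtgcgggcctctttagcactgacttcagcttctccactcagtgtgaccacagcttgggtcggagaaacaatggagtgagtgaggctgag
Cidec start 2: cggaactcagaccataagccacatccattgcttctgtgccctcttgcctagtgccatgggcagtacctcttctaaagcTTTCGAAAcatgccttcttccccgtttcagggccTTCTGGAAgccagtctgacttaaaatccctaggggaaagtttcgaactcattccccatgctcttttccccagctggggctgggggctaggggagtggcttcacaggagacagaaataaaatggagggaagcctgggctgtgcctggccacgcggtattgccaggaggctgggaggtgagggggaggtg
Cd36: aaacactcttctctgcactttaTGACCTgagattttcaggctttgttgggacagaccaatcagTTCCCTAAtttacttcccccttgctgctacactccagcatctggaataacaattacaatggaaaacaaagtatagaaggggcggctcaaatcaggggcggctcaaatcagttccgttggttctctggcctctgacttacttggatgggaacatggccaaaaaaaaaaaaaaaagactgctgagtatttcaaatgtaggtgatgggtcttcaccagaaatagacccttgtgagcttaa
The C/EBP motif began at base -198 of Cidec start 1, at -172 and -138 of Cidec start 2, at -187 of Cd36 and at -81 of Adipoq, counted from the start site. It also began at -55 of Lep and at -245 of Pck1. The half-site of Cd36 began at -228. RefSeq gave windows for 8 of the 10 genes. None of their 10 windows held the ROR element, the direct repeat or the TATA box in the letters searched, and Cfd and both starts of Lipe held no match at all.

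**Figure D2:**
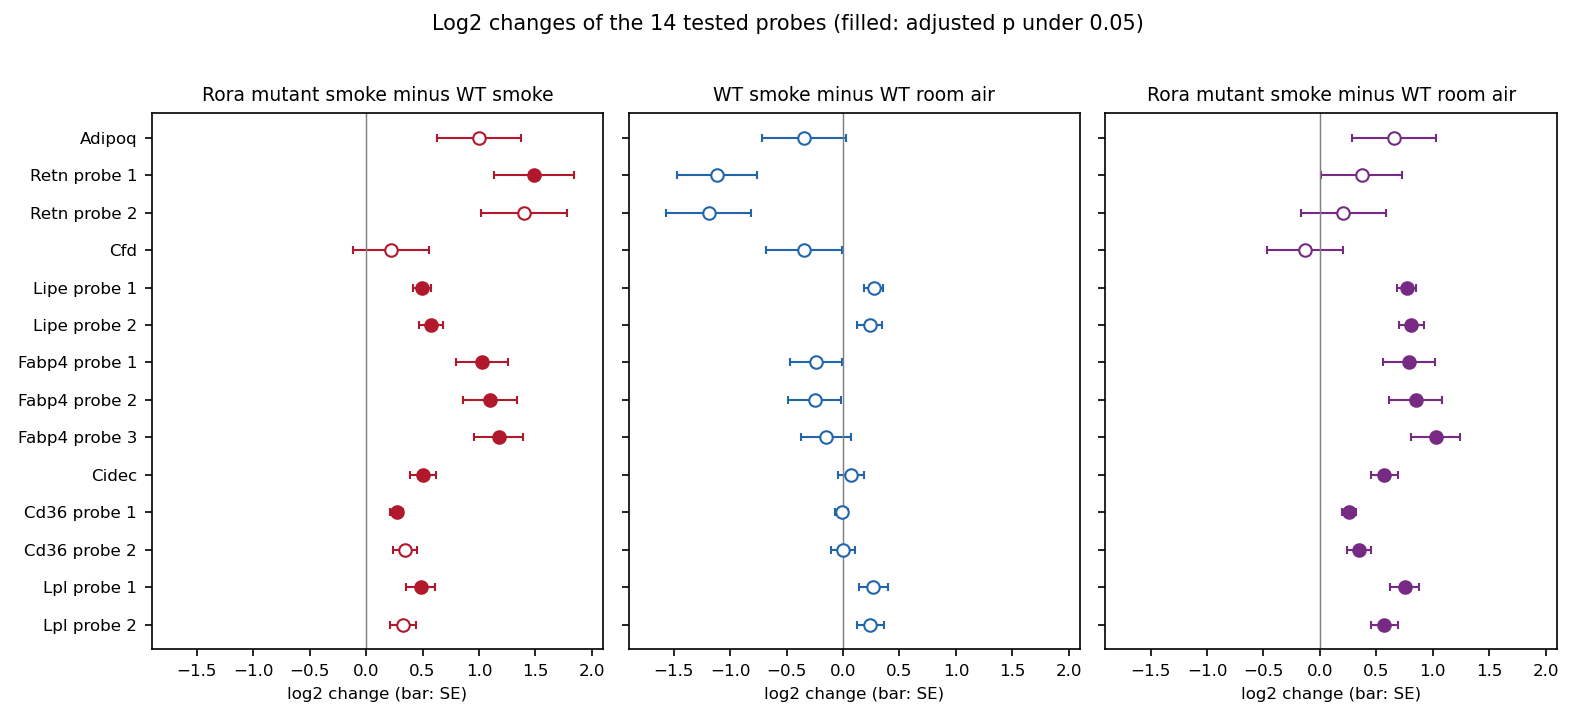
Log2 change of the 14 tested probes with its SE in the 3 comparisons, filled where the adjusted p was under 0.05. Filled points are 9 for Rora mutant smoke minus WT smoke, 0 for WT smoke minus WT room air and 10 for Rora mutant smoke minus WT room air.

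The comparison of WT smoke with WT room air sets smoke against room air without the mutation, and it also carries the difference in sex-linked transcripts. Smoke and that difference cannot be told apart in it, for these probes or for the list genes below. Here 0 of the 14 probes passed by limma, against 4.07% of all tested probes, 1.98% higher and 2.09% lower. At an unadjusted p under 0.05 there were 3, both probes of Retn and probe 1 of Lipe. Changes were positive for 5 of 14 probes, and their median was -0.08, against -0.01 over all tested probes. Retn probe 1 had a change of -1.12 ± 0.35 (adjusted p = 0.113) and Retn probe 2 of -1.19 ± 0.38 (adjusted p = 0.113), with overlapping groups. Without WT smoke replicate 2 these were -0.83 and -0.83. The 2 Lipe probes went the other way, at 0.27 ± 0.08 (adjusted p = 0.0996) and 0.24 ± 0.11 (adjusted p = 0.291). They were the 2 of 14 probes whose groups did not overlap, against 12.3% of all tested probes and 5.71% with WT smoke higher. Lpl had changes of 0.27 ± 0.13 and 0.24 ± 0.12 (adjusted p = 0.315 and 0.318), and both Cd36 probes stayed near 0 (-0.01 ± 0.06 and -0.00 ± 0.11). Adipoq had a change of -0.34, Cfd of -0.35 and Fabp4 probe 3 of -0.15, none of which passed, and without WT smoke replicate 2 these became 0.08, 0.02 and 0.08.

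The comparison of Rora mutant smoke with WT room air shares its arrays with the other 2 and is given for its values. In it 10 of 14 probes passed, all higher in the mutants, against 16.3% of all tested probes, 6.06% higher and 10.2% lower. The groups did not overlap at 9 of the 14, all with the mutants higher, against 20.3% of all tested probes and 8.5% with the mutants higher. The 10 were both probes of Lipe, Cd36 and Lpl, all 3 of Fabp4 and the probe of Cidec. The log2 changes were 0.77 and 0.81 for Lipe, 0.79, 0.85 and 1.02 for Fabp4, 0.57 for Cidec, 0.26 and 0.34 for Cd36, and 0.75 and 0.57 for Lpl. The hormones did not pass: Adipoq had 0.66 (adjusted p = 0.261), the Retn probes 0.37 (adjusted p = 0.526) and 0.21 (adjusted p = 0.751), and Cfd -0.13 (adjusted p = 0.83). Retn probe 1 averaged -1.43 ± 0.44 in mutant smoke, -2.92 ± 0.63 in WT smoke and -1.80 ± 0.61 in WT room air, and Lipe probe 1 averaged -0.49 ± 0.11, -0.99 ± 0.12 and -1.26 ± 0.13 in the same groups (SD, n = 4 each). The 3 comparisons were not tested against each other. The median change of the 14 probes was 0.77, 0.24 and 0.76 within slides 1, 2 and 3, with 14, 10 and 14 of the changes positive. The 4 negative changes within slide 2 were -0.63 and -0.87 for the Retn probes, -0.64 for Cfd and -0.05 for Cd36 probe 2.

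**Figure D3:**
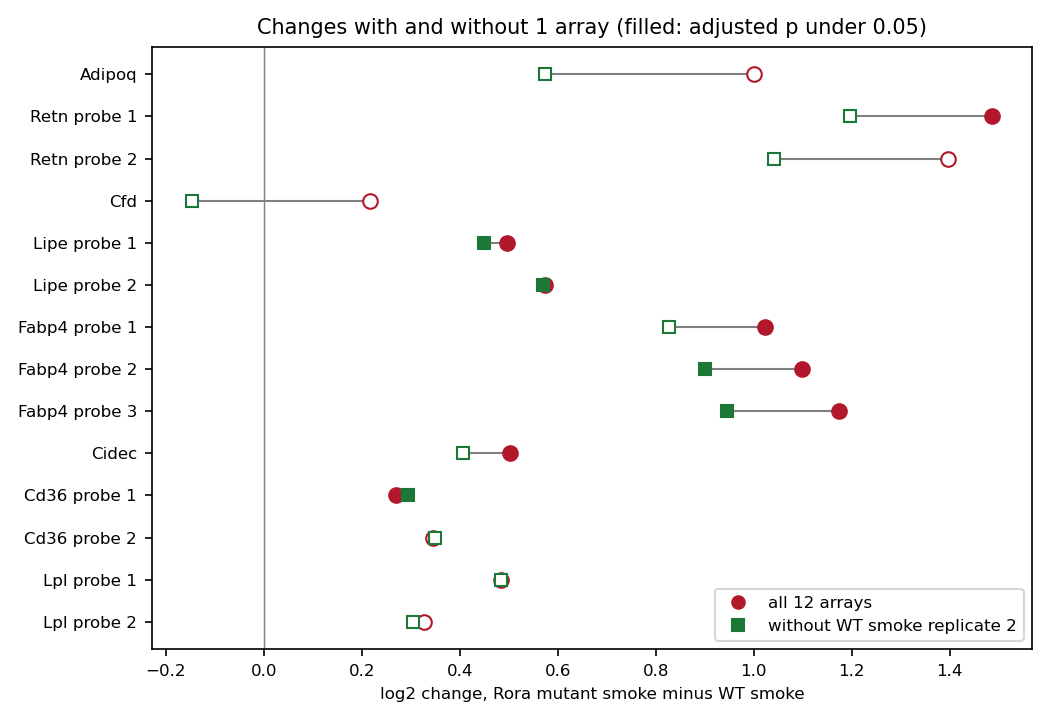
Log2 change of Rora mutant smoke minus WT smoke for each tested probe with all 12 arrays (circles) and without WT smoke replicate 2 (squares), filled where the adjusted p was under 0.05. Of the 9 filled circles 5 have a filled square, and Cfd lies at 0.22 with all arrays and at -0.15 without that array.

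Each of the 3 slides held all 3 groups, with a single array of some groups, so values within a slide have no replication. For Rora mutant smoke minus WT smoke the median change of the 14 probes was 0.65, 0.78 and 0.40 within slides 1, 2 and 3, and 13, 14 and 13 of the changes were positive. For WT smoke minus WT room air the medians were 0.12, -0.35 and 0.33 within slides 1, 2 and 3. Slide 2, with the negative median, is the one that held WT smoke replicate 2. Cfd was the probe with negative changes between mutant smoke and WT smoke within slides, at -0.46 in slide 1 and -0.31 in slide 3.

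Of 44 tested genes of adipocyte differentiation and lipid storage, each by its brightest probe, 3 rose and 0 fell in Rora mutant smoke against WT smoke. The other 41 did not pass. Calls in either direction were a share near the 5.83% of all tested probes, where 2.07% passed higher and 3.75% lower. The median change of the 44 genes was 0.10, against -0.00 over all tested probes. Perilipin 2 (Plin2), which coats droplets in most cell types, stood at 4.34, 4.31, 4.23 and 4.22 in mutant smoke lungs, against 3.95, 4.06, 4.00 and 4.14 in WT smoke lungs, and rose by 0.24 ± 0.06 (adjusted p = 0.0398). Pnpla3, a lipase-like droplet protein, stood at -4.47, -5.13, -4.84 and -3.94 in mutant smoke lungs, against -5.72, -6.04, -5.47 and -5.80 in WT smoke lungs, and rose by 1.16 ± 0.22 (adjusted p = 0.0124). Fatty acid synthase (Fasn) rose by 0.27 ± 0.07 (adjusted p = 0.0362). The mutant and WT smoke arrays did not overlap for any of the 3. Of these 3, only Pnpla3 passed without WT smoke replicate 2 (adjusted p = 0.0352). The droplet coat of fat cells, perilipin 1 (Plin1), had a change of 0.80 ± 0.34 that did not pass (adjusted p = 0.205), as did its relative Plin4 (0.50 ± 0.18, adjusted p = 0.132). Leaving out WT smoke replicate 2 gave 0.39 for Plin1 and 0.30 for Plin4.

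In WT smoke against WT room air, 1 of these 44 genes rose and 4 fell, against 4.07% of all tested probes that passed, 1.98% higher and 2.09% lower. Pparg, the nuclear receptor that drives fat cell differentiation and alveolar macrophage maturation, averaged 0.93 ± 0.05 in WT smoke and 0.51 ± 0.06 in WT room air, and rose by 0.42 ± 0.07 (adjusted p = 0.00655). Pnpla3 fell by 1.12 (adjusted p = 0.0149), Thrsp by 1.13 (adjusted p = 0.0377), Scd1 by 0.55 (adjusted p = 0.034) and Gpd1 by 0.28 (adjusted p = 0.0472). Thrsp and Scd1 serve the synthesis of fatty acids, and Gpd1 makes glycerol phosphate. Thrsp, Scd1 and Gpd1 did not pass without WT smoke replicate 2. Fasn had -0.25 by its brightest probe (adjusted p = 0.0617), while its other probe passed at -0.54 (adjusted p = 0.00136). For Thrsp the mutant minus WT smoke change was 0.97 ± 0.27 (adjusted p = 0.0561).

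Of 15 tested receptors of these hormones and partners of lipoprotein lipase, 1 rose and 0 fell in Rora mutant smoke against WT smoke. This share is near the 5.83% of all tested probes that passed in either direction, 2.07% higher and 3.75% lower. The 1 that rose was Angptl4, a secreted inhibitor of lipoprotein lipase and a target of PPAR receptors. Its levels were 4.88, 5.09, 4.95 and 5.16 in mutant smoke lungs, 3.30, 3.57, 4.14 and 4.45 in WT smoke lungs, and 2.46, 2.81, 2.51 and 2.15 in WT room air lungs. Its 3 groups did not overlap, in the order mutant smoke, WT smoke and room air. Angptl4 rose by 1.15 ± 0.22 in the mutants against WT smoke, or 2.22-fold (adjusted p = 0.0137), and by 1.39 ± 0.22 in WT smoke against WT room air, or 2.61-fold (adjusted p = 0.00451). Both passed without WT smoke replicate 2 (adjusted p = 0.0383 and 0.00845). The adiponectin receptors Adipor1 and Adipor2 had changes of 0.15 and 0.22 in the mutants against WT smoke that did not pass, and Lepr, the leptin receptor, had 0.13. Other probes of Adipor2 had -0.08 and -0.15 and the other Lepr probe -0.07, and the other probe of Vldlr, a lipoprotein receptor, passed at 0.33 (adjusted p = 0.0151). Cdh13, which binds adiponectin on endothelium, rose by 0.48 ± 0.10 in WT smoke against WT room air (adjusted p = 0.0183), while its other probe had 0.38 and did not pass (adjusted p = 0.462).

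**Figure D4:**
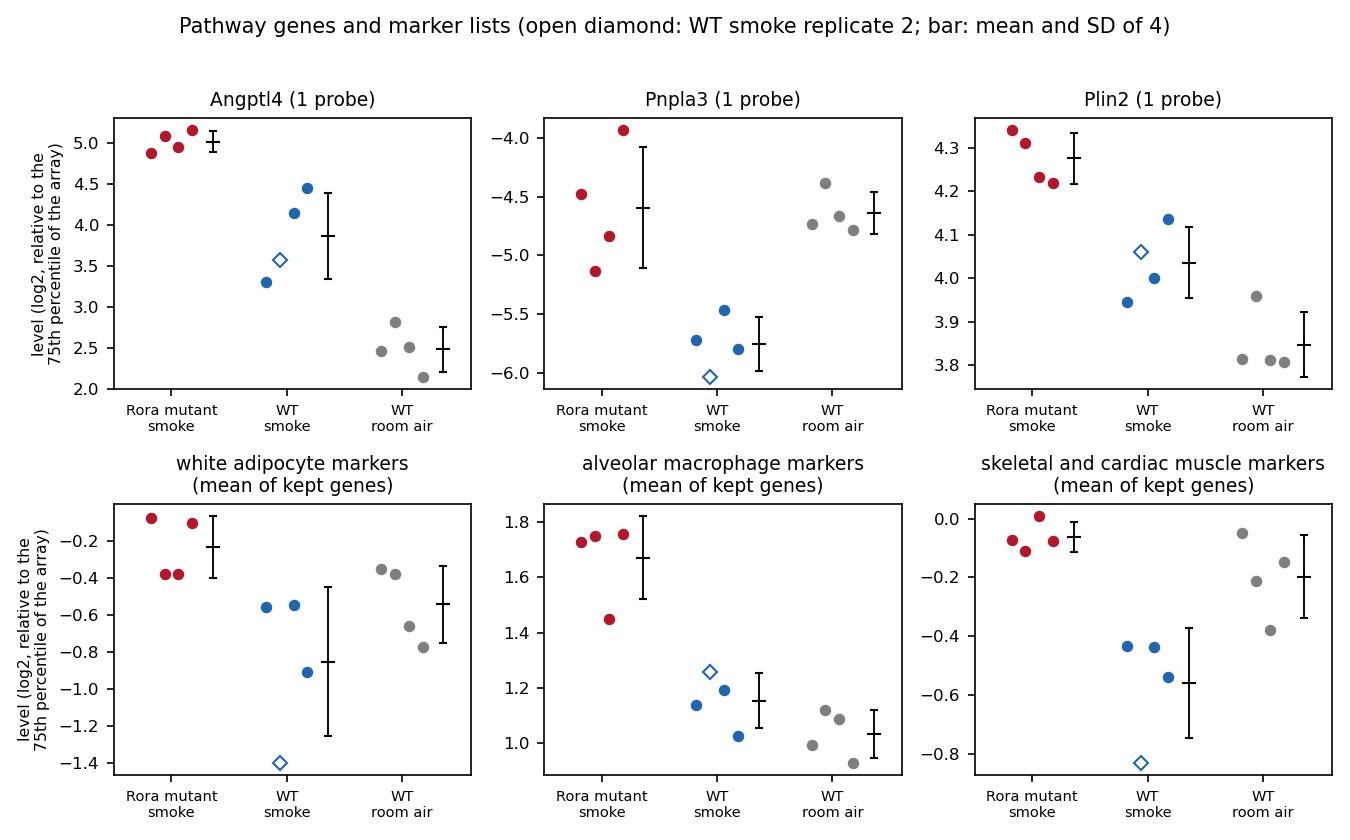
Levels on each array of Angptl4, Pnpla3 and Plin2 (upper row) and mean levels of 3 marker lists over their tested genes (lower row), as log2 intensity relative to the 75th percentile of the array (open diamond: WT smoke replicate 2; bars: mean and SD of 4). The mutants lie above WT smoke in all 6 panels, and for alveolar macrophage markers the mutants run from 1.45 to 1.76 against 1.02 to 1.26 in WT smoke. The white adipocyte mean includes Adipoq, Retn, Cfd, Cidec, Lipe and Fabp4.

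Markers of several cell types moved with the genotype comparison. Of 15 tested white adipocyte markers 5 rose and 0 fell in Rora mutant smoke against WT smoke, and 4 of the 5 are genes already described. Of the 9 markers outside the 10 genes, 1 rose. That was Acvr1c, an activin receptor of fat cells (limma, adjusted p = 0.0247). It was above background on 7 arrays, among them all mutant arrays and no WT smoke array. The test therefore used WT smoke values that were not above background, and no fold is given. Without the mutant arrays the Acvr1c probe would not have met the filter of 4 arrays. Its call therefore adds no support to the list. Acvr1c levels ran from -5.72 to -5.43 in mutant smoke, from -8.47 to -6.57 in WT smoke and from -6.60 to -5.60 in WT room air. The mutants thus overlapped with room air for this gene. The mean level of the white adipocyte list ran from -0.38 to -0.08 in mutant smoke, from -1.40 to -0.54 in WT smoke and from -0.77 to -0.35 in WT room air. This mean includes Adipoq, Retn, Cfd, Cidec, Lipe and Fabp4, so it is not separate from the results above. Of the 9 other markers 6 had a positive change in mutant smoke against WT smoke, and the median of the 9 was 0.50. Lep and Aqp7 were too dim to be tested. The number of the 15 markers that passed without WT smoke replicate 2 was 1. Among 10 tested brown adipocyte markers Cox8b (0.51 ± 0.12) and Dio2 (0.60 ± 0.11) rose and Ppargc1a fell by 0.39, while the other Ppargc1a probe had a change of -0.01. Of these 3, Dio2 passed without WT smoke replicate 2. The defining brown fat protein Ucp1 had 1.02 near background (adjusted p = 0.29), and Elovl3 and Otop1 were too dim to be tested.

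Alveolar macrophages, which take up surfactant lipid and express Fabp4, Cd36 and Lpl, gave the list with the most calls. Of its 13 tested markers 8 rose and 0 fell in Rora mutant smoke against WT smoke, with a median change of 0.50, and 7 passed without WT smoke replicate 2. Examples were Siglecf (0.82 ± 0.08, adjusted p = 0.000347), Chil3 (0.73 ± 0.12, adjusted p = 0.00631) and Mrc1 (0.58 ± 0.09, adjusted p = 0.00637), with Marco, Mcoln3, Atp6v0d2, Fabp1 and Cd68 the others. The other Mcoln3 probe did not pass (0.68, adjusted p = 0.0604). The mean level of the list ran from 1.45 to 1.76 in mutant smoke, from 1.02 to 1.26 in WT smoke and from 0.93 to 1.12 in WT room air. In WT smoke against room air 2 rose (Marco, Mcoln3) and 1 fell (Fabp1), against 1.98% of all tested probes higher and 2.09% lower. The other Mcoln3 probe did not pass there either (0.48, adjusted p = 0.209). Of 16 skeletal and cardiac muscle markers 5 rose and 0 fell in the mutants against WT smoke (Acta1, Ckm, Myh1, Myh2 and Pln), and 3 passed without WT smoke replicate 2. Myh1 and Myh2 were above background on 4 of 4 mutant arrays and 1 of 4 WT smoke arrays, and the other Myh2 probe did not pass (0.31, adjusted p = 0.35). The mean level of the 16 muscle markers ran from -0.11 to 0.01 in mutant smoke, from -0.83 to -0.43 in WT smoke and from -0.38 to -0.05 in WT room air. Of 12 capillary endothelial markers 0 rose and 1 fell (Kdr, by 0.31, not past the threshold without WT smoke replicate 2). For Ednrb of this list the brightest probe did not pass, while its other probe passed at -0.50 (limma, adjusted p = 0.0499). The mean level of the endothelial list, 2.31 to 2.42 in mutant smoke, overlapped the 2.32 to 2.41 in WT smoke. Of 8 mesothelial markers 0 passed (limma, median change 0.15), and of 8 fibroblast and preadipocyte markers 1 rose (Pdgfra, 0.45, adjusted p = 0.0118; 0.13 for its other probe) and 0 fell. Counts for these marker lists in mutant smoke against WT smoke stand against 5.83% of all tested probes that passed, 2.07% higher and 3.75% lower. The part of fat, macrophages or muscle in the results on the hormone and lipid genes was not tested.

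Levels were taken as deviations from the mean of the group, and Pearson's r with Adipoq over the 12 arrays describes the likeness, with no test. The values compared share array, scaling and piece of tissue. Against Adipoq, r was 0.91 for both Retn probes, 0.92, 0.88 and 0.89 for the Fabp4 probes, 0.88 for Cidec and 0.87 for Cfd. It was 0.46 and 0.36 for Lipe, 0.39 and 0.64 for Lpl, and -0.34 and 0.20 for Cd36, against a median of 0.01 over the brightest probes of all tested genes. Without the 2 arrays farthest from the Adipoq median (WT smoke replicate 2 and WT room air replicate 4), r ranged from 0.68 to 0.89 for Retn, Fabp4, Cidec and Cfd, and Spearman's rho over all 12 arrays from 0.74 to 0.90. For the other probes r without those 2 arrays was 0.47 and 0.60 for Lipe, 0.64 and 0.77 for Lpl, and 0.18 and 0.33 for Cd36. Their Spearman's rho over all 12 arrays was 0.43 and 0.42 for Lipe, 0.59 and 0.72 for Lpl, and -0.32 and 0.32 for Cd36. The genes outside the 10 most like Adipoq were Car3 (r = 0.97), a carbonic anhydrase of fat and muscle, Vat1l (0.96), Plin1 (0.95), Tmem45b (0.93), Cldn22 (0.92), Dgat2 (0.92), Cacfd1 (0.92), Mapk13 (0.92), Cyp2e1 (0.91) and Prdx6b (0.91). Without those 2 arrays, r for these ran from 0.76 to 0.91. Of the 10, Tmem45b rose in the mutants against WT smoke (1.77, adjusted p = 0.0274), while Dgat2, which makes triglyceride, had a change of -0.05.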

How the data were processed

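RNA of 12 mouse lungs was read on Agilent 4x44K arrays with 1 dye, 4 per group. The scanner software was Agilent Feature Extraction 9.5.3.1, per the submitters' processing notes. Per the file headers, the processed signal is a linear intensity after background subtraction within each array and without normalization between arrays; the mean and background signals used in an alternative are uncorrected intensity, and the flags for background, saturation and outliers are other values of 0 or 1. The authors' deposited value table holds log2 intensity whose columns correlate with the log2 processed signal at r of 0.9995 to 1.00 and share a median near 6.80, so its columns were aligned between arrays; its centring is not stated, and it served as an alternative. Its direction is that of the signal.

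The log2 of the processed signal was set relative to that of the array's 75th percentile, and replicate spots were averaged without outlier spots, which took 43379 non-control spots to 41174 probes. Probes well above background on at least 4 of 12 arrays, and with a value on at least 3 arrays of each group, were kept (30189). limma 3.58.1 in R 4.3.3 fitted 1 mean per group over all 12 arrays, with two-sided tests and Benjamini-Hochberg adjustment over all kept probes at 0.05; the fit was tested on simulated data. The labels call the arrays of a group biological replicates. The number of arrays limits precision. Symbols were updated through a RefSeq table, which left 8059 probes under their file name. Positions of probes are on build mm8, as in the files; no annotation of that build was used here. Promoter windows are RefSeq's, on GRCm38.p6. Figures were drawn with matplotlib 3.10.9.

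The genes, the pathway lists and the marker lists were chosen with earlier results of these data known. Besides all probes of the 10 genes, the text names genes of the lists that passed in either the mutant smoke against WT smoke or the WT smoke against WT room air comparison, at most 8 per list and direction, and the 10 genes most correlated with Adipoq. Alternatives covered the background correction, the scaling, the dim-probe filter, outlier spots, 1 probe per gene, the deposited values, slide and replicate number as blocks, the groups in the fit, trended robust moderation, and leaving out each array. Replicate numbers pair no samples: deviations of arrays with the same number correlated at -0.08 to 0.17 between mutant smoke and WT smoke.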

Additional observations from a re-analysis of the deposited data

Results flagged for a closer look

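Of 69 groups of 4 arrays examined, 4 held an array far from the other 3 by Dixon's test at the usual limit, and chance gives about 1 in 20. Fabp4 probe 3 stood at -3.10 in WT smoke replicate 2, against -2.23 to -2.13 in the other WT smoke arrays. Plin2 stood at 3.96 in WT room air replicate 2, against 3.81 in the others. Pparg stood at 0.84 in mutant smoke replicate 3, against 1.11 to 1.13 in the others, and at 0.60 in WT room air replicate 2, against 0.47 to 0.48 in the others.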

How the results depend on the processing

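For Rora mutant smoke against WT smoke, 9 of 14 probes passed. The count was 0 with normexp background correction, where 0.0861% of all probes passed, 5 with no filter on dim probes, 4 with slide as a block and 5 with only the groups compared in the fit; leaving out 1 array at a time gave 3 to 10. The changes of the 14 probes were positive in each of the other normalizations, filters and fits, and the exception among the left-out arrays was Cfd without WT smoke replicate 2. The lower counts came with lower shares over all probes (2.23% with no filter, 4% with the slide block, 3.41% with only those groups). With 1 array left out the share over all probes ran from 2.49% to 6.21%. The cause was not tested. The median change of 0.54 was 0.49 to 0.64 with 1 array left out and 0.78 within slide 2. For WT smoke against WT room air 0 passed in every alternative run; the median of -0.08 was 0.12, -0.35 and 0.33 within slides 1, 2 and 3 and ran from -0.14 to 0.05 with 1 array left out. For Rora mutant smoke against WT room air, 10 passed, with 0 under normexp, 5 of 8 with 1 probe per gene and 7 to 10 with 1 array left out; Cd36 probe 2 turned to -0.053 within slide 2. Under normexp the median of all probes was 0.15 for mutant smoke against WT smoke, where the 14 probes had 0.54. For WT smoke against room air it was -0.11, where the 14 probes had -0.11. With the replicate number as a block 9, 0 and 9 probes passed in the 3 comparisons; the numbers do not pair the samples. Over the single probes and alternatives, 866 values kept their direction and side of the threshold, 99 no longer passed, 7 newly passed and 18 that did not pass changed sign. The number of arrays, and signal near background for Lep, limit these results.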
